A study of Mus musculus with 3 samples.

Results

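Creatine is a small nitrogen compound that cells phosphorylate as a rapidly usable energy store, and its handling was followed through 4 genes. Gatm encodes arginine:glycine amidinotransferase, the mitochondrial enzyme of the first step of creatine synthesis, and Gamt encodes guanidinoacetate N-methyltransferase, the enzyme of the second. Slc6a8 encodes the creatine transporter of the plasma membrane, and Ckb encodes the cytosolic brain-type creatine kinase. The genes were chosen by name, from earlier results of these data in which the difference of Gatm was already known. They are 4 of the 19935 genes whose probe sets were annotated with exactly 1 gene symbol. Each had 1 such probe set, so none had to be selected by brightness, and no second probe set was at hand as a check.

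The RNA came from naive CD4+ T cells, helper T lymphocytes that have not met their antigen, taken from wild-type C57BL/6 mice 8 weeks old. Cells were cultured with the cytokine IL-21, with IL-6 together with TGFb1, or with medium and vehicle, and each culture was measured on 1 Affymetrix array. The labels do not give the cytokine doses, the time in culture, any T cell receptor stimulus or whether cells of several mice were pooled. With 1 array per culture there was no replicate and no test, so each difference compares 2 arrays and carries no error or p-value. IL-6 and TGFb1 were given only together, so what belongs to either of them cannot be told apart.

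In creatine synthesis Gatm transfers a guanidino group from arginine to glycine, which gives guanidinoacetate and ornithine. Gamt then methylates guanidinoacetate with S-adenosylmethionine. In mammals the kidney and the liver are the best known sites of these steps, and many other cells import creatine through Slc6a8 instead. Creatine kinases move phosphate between ATP and creatine, and mouse T cells are known to take up creatine.

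The annotated promoters of the members are shown as sequence only, and no link to their differences between the cultures was tested. RefSeq promoters of the GRCm38.p6 build were matched for 3 of the 4 members, Gatm, Gamt and Ckb, and not for Slc6a8. Each run is the 250 bases before the annotated start, read 5′ to 3′ on the minus strand, which is the coding strand of these genes. Capitals mark any match, on either strand, to the motifs named next. These are TTCNNNGAA (the STAT element), the same element with the longer STAT6 spacing, and CAGAC (the SMAD element). The others are GCGTG (the aryl hydrocarbon receptor core), ACGTG (a form of the HIF core) and TATAAA (the TATA box). The regions are chr2:122611278-122611527 for Gatm, chr12:111672339-111672588 for Ckb and chr10:80261013-80261262 for Gamt.
Gatm: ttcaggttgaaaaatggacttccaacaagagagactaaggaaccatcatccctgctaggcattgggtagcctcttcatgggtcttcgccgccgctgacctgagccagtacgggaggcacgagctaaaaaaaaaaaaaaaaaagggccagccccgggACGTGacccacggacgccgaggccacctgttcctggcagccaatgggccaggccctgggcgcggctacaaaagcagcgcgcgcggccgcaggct
Ckb: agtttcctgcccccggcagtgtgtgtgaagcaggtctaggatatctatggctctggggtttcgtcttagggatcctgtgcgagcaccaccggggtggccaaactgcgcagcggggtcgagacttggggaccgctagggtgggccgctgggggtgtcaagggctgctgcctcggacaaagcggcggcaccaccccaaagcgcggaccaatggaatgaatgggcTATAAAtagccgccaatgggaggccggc
Gamt: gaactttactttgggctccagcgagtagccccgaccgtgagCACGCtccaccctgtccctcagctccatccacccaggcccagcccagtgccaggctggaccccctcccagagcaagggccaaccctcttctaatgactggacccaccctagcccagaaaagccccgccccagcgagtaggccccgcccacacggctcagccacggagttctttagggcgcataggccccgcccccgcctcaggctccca

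The Gatm promoter held 1 match, ACGTG, which began 94 bases before the start and which 16.6% of all 32851 promoter windows of this length also held. The Ckb promoter held TATAAA on its coding strand, beginning 28 bases before the start, and 12.4% of windows held that motif. The Gamt promoter held GCGTG on the opposite strand, printed as its reverse complement 209 bases before the start, and 28.2% of windows held it. None of these 3 windows held the STAT element, its STAT6 spacing or the SMAD element, which 7.02%, 5.85% and 42.2% of windows held. No overlap between motifs occurred in them. Matches are letters in a window and were not tested as binding sites. The windows were 59.2% G or C for Gatm, 62.8% for Ckb and 66.8% for Gamt, against a median of 52.4% over all windows.

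Gatm was the member that differed most between the cultures. Its probe set intensity, on the linear scale of the deposited values, was 1228 with IL-21, 1578 with IL-6 + TGFb1, and 278 with medium. Both cytokine cultures were therefore far above medium, with the IL-6 + TGFb1 culture highest. Every difference here is the log2(intensity + 1) of the first-named culture less that of the second. For Gatm this was 2.14 for IL-21 minus medium, a 4.41-fold higher level, and 2.50 for IL-6 + TGFb1 minus medium, a 5.67-fold higher level. The intensity gained over medium with IL-21 was 73.0% of that gained with IL-6 + TGFb1. Both differences subtract the same medium value of 278, so they are not independent of each other.

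**Figure D1:**
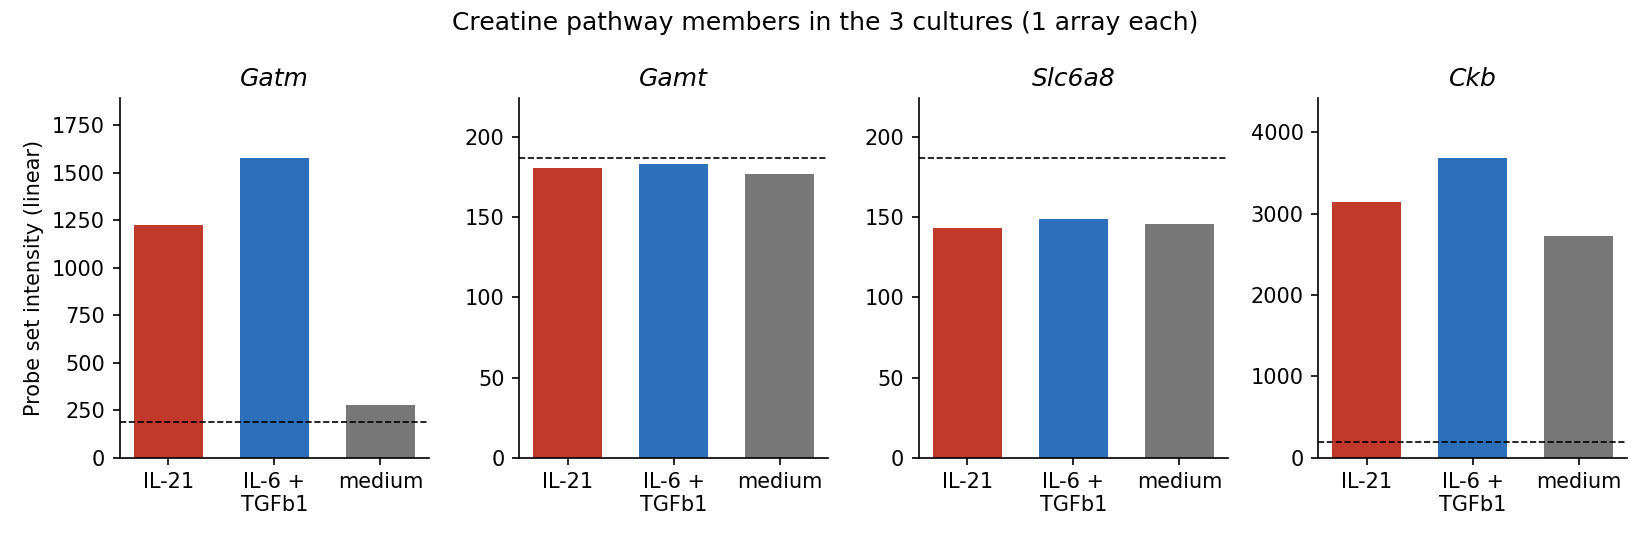
Probe set intensity (linear scale, from 0, with a separate axis for each gene) of the 4 members in the IL-21, IL-6 + TGFb1, and medium cultures. Each bar is 1 array, so there are no error bars, and the dashed line is the brightness filter at 187. Gatm stands at 1228 and 1578 in the cytokine cultures against 278 with medium, while Gamt and Slc6a8 stay below the line in every culture.

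The medium value of Gatm was not at the dim end of its array, where 58.6% of probe sets were dimmer. It includes background and no detection call was used, so it does not show whether Gatm RNA was present with medium. Among the stromal and epithelial marker genes, Col1a1 (343) and Krt8 (317) were brighter than Gatm with medium. Col1a2 (278) was level with Gatm there, and the rest of that list were dimmer. The folds over medium are therefore ratios of signal, background included. On the IL-21 array 81.6% of probe sets were dimmer than Gatm, and on the IL-6 + TGFb1 array 85.6%. Among the 11003 genes that were compared, those reaching an intensity of 187 on at least 1 array, Gatm had rank 5 from the top for IL-21 minus medium and rank 9 for IL-6 + TGFb1 minus medium. Of the 2571 compared genes within 0.5 log2 units of its mean level, 3 were as high or higher with IL-21, Gatm among them, and the same count held with IL-6 + TGFb1. These ranks describe the values by which Gatm was noticed and are no evidence beyond them.

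Of the 2 members bright enough to be compared, Gatm alone was at least 2-fold higher than medium with IL-21, where 0.482% of all compared genes were. It was also the only compared member at least 2-fold higher with IL-6 + TGFb1, against 0.673% of all compared genes. No member was at least 2-fold lower than medium in either cytokine culture, against 0.109% of compared genes with IL-21 and 0.364% with IL-6 + TGFb1. Since the known difference of Gatm fixed part of the choice of genes, nothing is read from these counts.

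The array measures a mean over all cells of a culture, so more cells with Gatm RNA and more Gatm RNA per cell cannot be told apart. The labelled cell type was checked with 11 measured T cell marker genes, among them Cd3e, Cd3g and Cd4, all of which passed the brightness filter. Their intensities ran from 1760 to 6765 with IL-21, from 1743 to 6673 with IL-6 + TGFb1, and from 1710 to 6858 with medium. Of 40 measured marker genes of other cell types, 8 passed the filter. The summed intensity over all 40, most of them below the filter, was 5556 with IL-21, 5633 with IL-6 + TGFb1, and 5913 with medium. The lists did not move together. The 6 B cell markers summed to 971 with IL-21, 948 with IL-6 + TGFb1, and 921 with medium, and the 10 monocyte, macrophage and granulocyte markers to 947 with IL-21, 967 with IL-6 + TGFb1, and 936 with medium. The CD8, dendritic, erythroid and platelet, and stromal and epithelial lists had their highest sums with medium. Cd8b1, a chain of the CD8 co-receptor, was well above the filter in these cells labelled CD4+, at 731 with IL-21, 616 with IL-6 + TGFb1, and 810 with medium, while Cd8a was below it. Of the 6 stromal and epithelial markers 4 passed the filter, of the 5 NK cell markers and the 10 monocyte, macrophage and granulocyte markers none. The part of other cells in the Gatm difference was not tested. Among the compared markers of other cells the largest difference between any 2 arrays had a size of 0.46, that of the keratin gene Krt8.

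Gamt, which completes the synthesis that Gatm begins, was nearly level. Its intensity was 181 with IL-21, 183 with IL-6 + TGFb1, and 177 with medium. The whole range over the cultures was 3.39% of the lowest value, or 0.05 on the log2 scale. Gamt fell just short of the brightness filter, and on the 3 arrays 47.8% to 49.7% of probe sets were dimmer than it. The difference from medium was 0.03 with IL-21 and 0.05 with IL-6 + TGFb1, close to the medians over all compared genes of 0.04 and 0.02. An intensity near the middle of the array does not show whether Gamt RNA was present, since the values include background and no detection call was used. The cultures with more Gatm signal therefore had no comparable difference in the Gamt signal.

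Slc6a8, the route by which creatine enters cells, was dimmer still and also level. Its intensity was 143 with IL-21, 149 with IL-6 + TGFb1, and 146 with medium. Its differences from medium were -0.02 with IL-21 and 0.03 with IL-6 + TGFb1. The IL-21 difference was 0.06 with quantile normalization and 0.04 with median centring of the arrays, so no direction is given for it. The Slc6a8 probe set did not reach the brightness filter on any array, and 41.9% to 43.5% of probe sets were dimmer than it.

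Ckb, the cytosolic kinase that uses creatine and ATP, was bright in all 3 cultures. Its intensity was 3149 with IL-21, 3686 with IL-6 + TGFb1, and 2721 with medium. The order of the cultures was the same as for Gatm, with much smaller steps. The Ckb difference from medium was 0.21 with IL-21, a 1.16-fold higher level, and 0.44 with IL-6 + TGFb1, a 1.35-fold higher level. Of all compared genes, 17.7% were as high or higher with IL-21 and 4.79% with IL-6 + TGFb1. Set against the 1261 compared genes of like brightness, these shares were 8.09% and 1.90%.

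A rough measure of error within the arrays came from the 474 genes with 2 bright probe sets. The gap between the differences of such probe sets had a 95th percentile of 0.41 for IL-21 minus medium and 0.37 for IL-6 + TGFb1 minus medium. The Ckb difference of 0.21 with IL-21 was inside that gap, and its difference of 0.44 with IL-6 + TGFb1 was slightly outside. The differences of Gatm were larger than it, but they are the values for which the gene was chosen, so nothing is read from this. This gap leaves out the spread between cultures, so it cannot show whether the Ckb values would separate in repeated cultures.

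**Figure D2:**
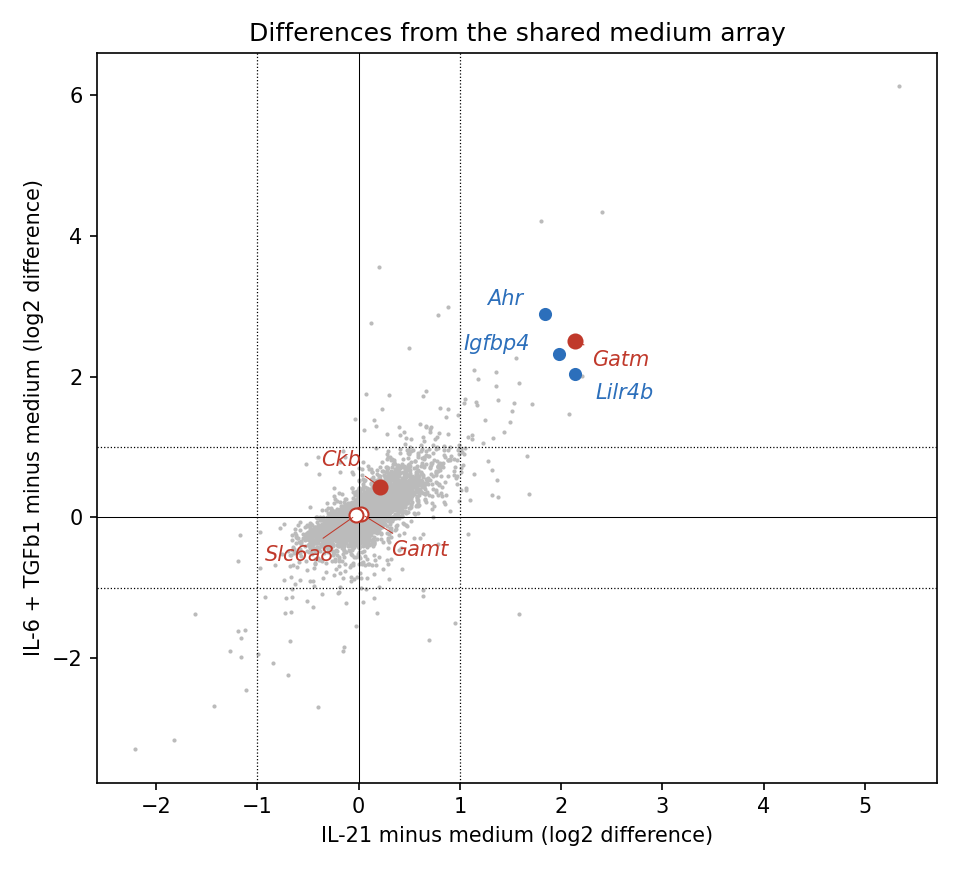
Log2 differences of the 11003 compared genes (grey) for IL-21 minus medium (horizontal axis) and IL-6 + TGFb1 minus medium (vertical axis), with dotted lines at 2-fold. The 4 members are red, open where below the brightness filter, and the 3 genes nearest to Gatm are blue. Because the medium array is common to both axes, the cloud is tilted by construction. Gatm lies at 2.14 and 2.50, Ckb at 0.21 and 0.44, and Gamt and Slc6a8 lie near 0 on both axes.

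Between the cytokine cultures, a comparison that does not use the medium array, Gatm and Ckb had their lower value in the IL-21 culture. Gamt and Slc6a8, both below the filter, differed little. Gatm had a difference of -0.36 for IL-21 minus IL-6 + TGFb1, which is 1.29-fold lower in the IL-21 culture. Of all compared genes, 1.55% were as low or lower with IL-21, and the 95th percentile of the gap between probe sets was 0.35 in this comparison. The Gatm value is thus at the edge of the within-array gap, and at -0.32 with median centring it is inside it.

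Ckb had a difference of -0.23 in the same comparison, which 4.72% of compared genes matched or exceeded on the lower side. The differences of Gamt (-0.02) and Slc6a8 (-0.06) were small, and 35.9% and 25.8% of compared genes were as low or lower. The sign of the Gamt value turned to 0.02 with quantile normalization and with median centring. No compared member was past 2-fold, where 0.273% of compared genes were 2-fold or more higher with IL-21 and 0.191% were as far below. The order of Gatm levels was therefore IL-6 + TGFb1, IL-21 and medium, and whether the first 2 of these differ beyond the spread of cultures was not measured.

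The remaining creatine genes were dim. Ckm, the muscle creatine kinase, was the brightest of them, at exactly 194 in both the IL-21 and the IL-6 + TGFb1 cultures and 236 with medium. Its difference from medium was -0.28 in each. The mitochondrial kinase genes Ckmt1 and Ckmt2 and Slc16a12, which encodes a carrier with creatine transport activity, did not reach the filter. Their intensities lay between 65.4 and 141 over the 3 cultures. Of the 4 creatine kinase genes, Ckb and Ckm were thus those that reached the filter.

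Arginine, the guanidino donor for Gatm, showed little change in the compared genes of its supply and use. Ass1, listed with them, had no probe set annotated with exactly 1 symbol and was not measured. Of 11 compared genes of arginine and ornithine metabolism and transport, none was past 2-fold in any comparison. Their median difference from medium was -0.01 with IL-21 and -0.11 with IL-6 + TGFb1, beside 0.04 and 0.02 over all compared genes. The genes with the largest differences were Nos2, which encodes the inducible nitric oxide synthase (264 with IL-21, 234 with IL-6 + TGFb1, and 352 with medium), and the dimmer Nos3, its endothelial relative (162 with IL-21, 155 with IL-6 + TGFb1, and 204 with medium). Nos2 had differences from medium of -0.42 with IL-21 and -0.59 with IL-6 + TGFb1. Nos3 had -0.33 and -0.40, but it passed the filter through its medium value alone, which favours a lower value in the other cultures.

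The cationic amino acid transporter gene Slc7a1 had an intensity of 3433 with IL-21, 3102 with IL-6 + TGFb1, and 3593 with medium, and its relative Slc7a3 had 1699 with IL-21, 1495 with IL-6 + TGFb1, and 1970 with medium. Oat, which converts the ornithine that Gatm releases, stood at 2964 with IL-21, 2834 with IL-6 + TGFb1, and 2681 with medium. These 3 genes, outside the naming rule, were named for their place beside Gatm after their values were seen. None of them moved by as much as 0.5 log2 units. The arginase genes Arg1 and Arg2 were below the filter in every culture.

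Glycine, the acceptor of the guanidino group, is made from serine and imported by the transporter Slc6a9. Among 14 compared genes of glycine, serine and folate metabolism the median difference from medium was -0.02 with IL-21 and -0.10 with IL-6 + TGFb1, with none past 2-fold. The largest were those of Dld, a subunit of the glycine cleavage system (-0.25 with IL-6 + TGFb1), and Mthfd2, a mitochondrial folate enzyme (-0.24 with IL-21 and -0.21 with IL-6 + TGFb1). Slc6a9 belongs to the same carrier family as Slc6a8. Its intensity was 2666 with IL-21, 2491 with IL-6 + TGFb1, and 3320 with medium, with differences from medium of -0.32 and -0.41.

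Of the 18 measured SLC6 transporters other than Slc6a8, 3 passed the filter. Besides Slc6a9 they were the betaine carrier gene Slc6a12 (-0.36 with IL-21 and -0.26 with IL-6 + TGFb1, having passed the filter on the medium array alone) and the taurine carrier gene Slc6a6 (0.00 and -0.04). Slc6a8 was thus like most of its family in lying below the filter.

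S-adenosylmethionine supplies the methyl group that Gamt uses. Of 9 compared genes of the methionine cycle none was past 2-fold, and the median difference from medium was 0.01 with IL-21 and -0.04 with IL-6 + TGFb1. Cth, which makes cysteine from cystathionine, had the largest: its intensity was 1769 with IL-21, 1857 with IL-6 + TGFb1, and 2638 with medium. Its differences were -0.58 and -0.51, so it was lower in the cultures in which Gatm was higher. As with Gatm, both Cth differences subtract the value of the same medium array and are not independent of each other. Ahcyl2, a relative of the enzyme that removes S-adenosylhomocysteine, was -0.36 with IL-6 + TGFb1 and -0.06 with IL-21.

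Ornithine, the other product of Gatm, feeds polyamine synthesis. In the polyamine list 1 of 9 compared genes was past 2-fold, Smox, which encodes spermine oxidase. Its intensity was 700 with IL-21, 1898 with IL-6 + TGFb1, and 570 with medium. The Smox difference from medium was 1.73 with IL-6 + TGFb1 and 0.30 with IL-21, and it was -1.44 for IL-21 minus IL-6 + TGFb1. Smox was thus high in the IL-6 + TGFb1 culture alone, where Gatm was high in both cytokine cultures. Odc1, which makes putrescine from ornithine, was -0.10 with IL-21 and -0.29 with IL-6 + TGFb1, and was named for its role after its values were seen. The list median was 0.02 with IL-21 and 0.01 with IL-6 + TGFb1.

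Adenylate and nucleoside diphosphate kinases pass phosphate between nucleotides beside the creatine kinases. None of the 10 compared genes of this list was past 2-fold. Ak4, a mitochondrial adenylate kinase, had an intensity of 2567 with IL-21, 1374 with IL-6 + TGFb1, and 1683 with medium. It differed by 0.61 with IL-21 and by -0.29 with IL-6 + TGFb1, and by 0.90 between these cultures, an order unlike that of Ckb. Nme4, a mitochondrial nucleoside diphosphate kinase, was 0.16 with IL-21 and 0.46 with IL-6 + TGFb1. The list medians were 0.14 and 0.03.

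The subunits of the AMP-activated kinase, which senses a low energy charge, were level. The median of the 6 compared genes of this list, Stk11 included, was 0.01 with IL-21 and 0.05 with IL-6 + TGFb1. Stk11, which encodes the upstream kinase LKB1 and not a subunit, had the largest differences (0.14 and 0.17). The subunit gene Prkab1 came next (-0.02 and -0.10). Over all adjoining lists, 63 genes were compared. None was past 2-fold with IL-21, and Smox alone was past it with IL-6 + TGFb1, where 0.482% of all compared genes were that far above medium with IL-21 and 0.109% that far below, and 0.673% above and 0.364% below with IL-6 + TGFb1. In IL-21 minus IL-6 + TGFb1 the list medians ran from -0.01 for the AMP-activated kinase to 0.07 for arginine. The median of all compared genes was 0.00. Smox was again the single gene of these lists past 2-fold. Of all compared genes, 0.273% were that far higher with IL-21 and 0.191% that far lower.

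**Figure D3:**
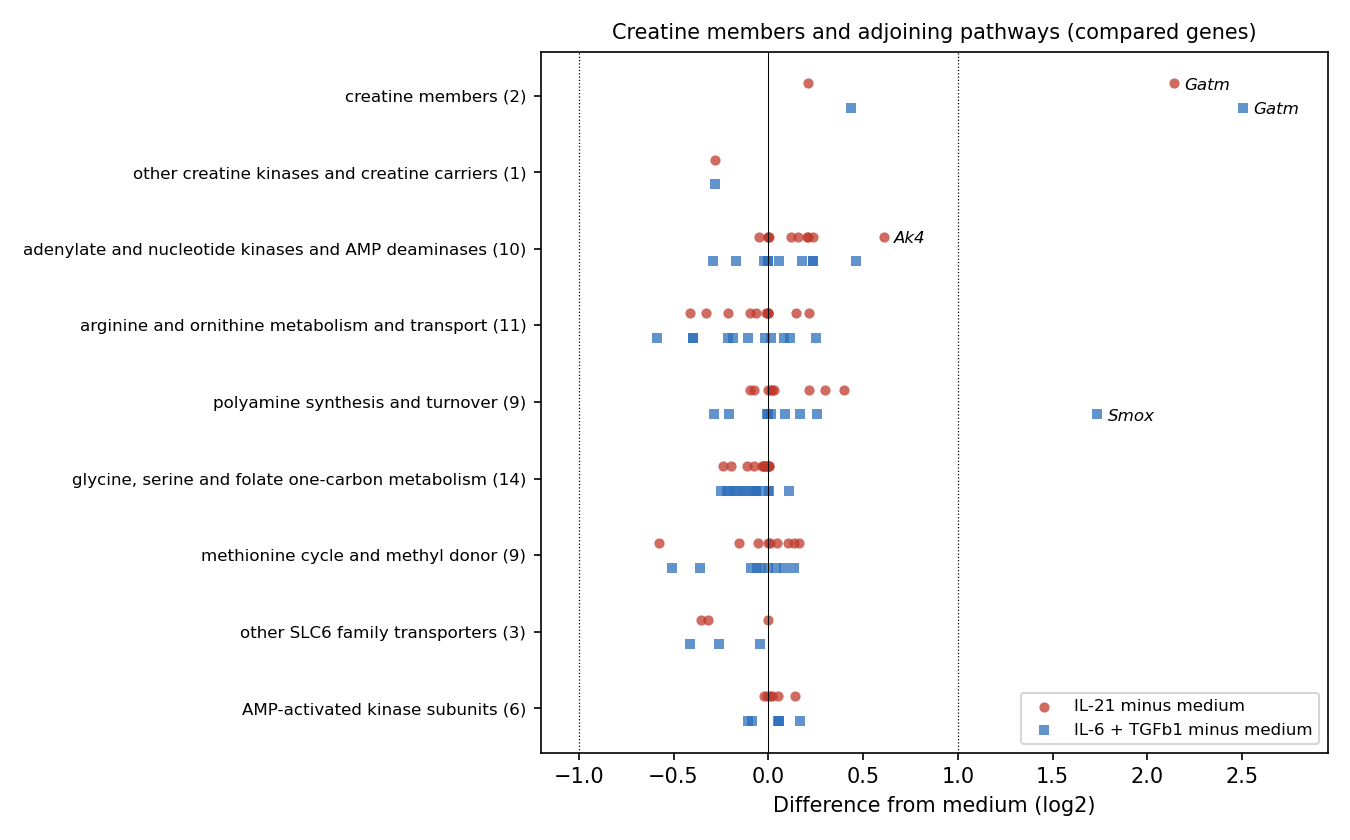
Log2 differences from medium of each compared gene, by list, for IL-21 (red circles) and IL-6 + TGFb1 (blue squares), with dotted lines at 2-fold and the number of compared genes in brackets. Each mark is 1 gene on 1 pair of arrays. Gatm at 2.14 and 2.50 and Smox at 1.73 with IL-6 + TGFb1 are the marks beyond 2-fold, and the other genes lie between -0.59 and 0.61.

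The genes most like each member were found by the distance between their differences from medium in the 2 cytokine cultures, which uses only 3 arrays and so describes little more than 2 numbers per gene. The nearest to Gatm was Igfbp4, which encodes an insulin-like growth factor binding protein, at a distance of 0.25 log2 units. Its intensity was 2658 with IL-21, 3354 with IL-6 + TGFb1, and 673 with medium. Lilr4b, an immunoglobulin-like receptor gene (0.47 away), and Ahr, the aryl hydrocarbon receptor gene (0.49 away), came next.

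Lilr4b was higher with IL-21 (461) than with IL-6 + TGFb1 (428), which was not the order of Gatm, and its medium value was 104. It passed the brightness filter through the cytokine cultures alone, which favours a higher value there. Ahr stood at 941 with IL-21, 1950 with IL-6 + TGFb1, and 262 with medium. No compared gene lay within 0.1 of Gatm and 1 lay within 0.25. Few genes differed from medium as much as Gatm, which was chosen with that difference known. Nothing is therefore read from its few neighbours. Around Ckb 197 genes lay within 0.1, nearest among them the T cell surface gene Cd5, then Dnajb14 and Abca2. Dnajb14 also passed the filter through the cytokine cultures alone.

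Within 0.1 of Gamt lay 3597 genes, the nearest being Agpat1, Pdlim2 and Rrp1. Within 0.1 of Slc6a8 lay 3245, the nearest being the ribosomal protein genes Rps28 and Rps3 and Atp6v0e2. The patterns of Gamt and Slc6a8 were those of the many genes with little difference between the arrays.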

How the data were processed

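The deposited table gives the intensity of 28815 probe sets on 3 arrays. Per the labels' protocols, a service company hybridized the RNA after fragmentation and biotin labelling (Affymetrix whole-transcript kit). Per the submitters' processing notes the build was mm8. The authors' summarization and normalization of the deposited intensities are not given in the sources used here. Equal values on pairs of arrays, 16.4% to 21.6% of probe sets, put many small differences at 0. Array medians were 182 with IL-21, 188 with IL-6 + TGFb1, and 191 with medium, and the number of arrays limits the precision.

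Gene names came from the platform annotation (21780 with 1 symbol, 1605 with several, the rest with none listed). The probe set with the highest mean stood for a gene. Symbols of the gene lists that were absent from the annotation were looked up by Entrez identifier (RefSeq, GRCm38.p6, names only), and 104 of 116 adjoining pathway genes were measured. Values were taken as log2(intensity + 1), with a pseudocount of 1 that slightly understates dim differences. Genes reaching the median of all values, 187, on any array were compared (11003). Past 2-fold means 1 or more log2 units up or down. Named beside the members were list genes past 2-fold in any comparison, otherwise the 2 largest of a list, and the 3 genes nearest to each member. No test was possible. The calculations were tested on simulated data. The members and lists were chosen with earlier results of these data known. Alternatives were a pseudocount of 16, quantile normalization, median centring, a floor at the 20th percentile, the mean of all probe sets, a filter at the 75th percentile and no filter. Python 3.11.15, numpy 2.4.6, pandas 2.3.3 and matplotlib 3.10.9 were used.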

Additional observations from a re-analysis of the deposited data

How the results depend on the processing

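The 12 member differences were recomputed under 5 alternatives each, and none crossed 2-fold. Gatm ran from 2.08 to 2.21 for IL-21 minus medium, from 2.44 to 2.53 for IL-6 + TGFb1 minus medium, and from -0.40 to -0.32 between the cytokine cultures. Ckb ran from 0.19 to 0.28, from 0.44 to 0.46 and from -0.25 to -0.18 in the same comparisons. Each member had 1 probe set and lay above the floor, so the floor and the mean of all probe sets returned the main values by construction. A larger pseudocount cannot turn a sign, so only quantile normalization and median centring could do so. Of 60 values, 56 kept their sign, many of them for these reasons alone. The 4 others belonged to Slc6a8 (IL-21 minus medium) and Gamt (IL-21 minus IL-6 + TGFb1) under quantile normalization and median centring, and the largest move of any value was 0.08. Of 42 counts of genes past 2-fold, 39 were within 1.5 times of those used. With the filter at the 75th percentile, an intensity of 785, 27 genes were at least 2-fold higher with IL-21 than with medium against 53, 42 with IL-6 + TGFb1 against 74, and 11 lay 2-fold or more below IL-6 + TGFb1 in the IL-21 culture against 21, since fewer genes are compared there. No paired analysis was possible because each culture had 1 array, and no array could be left out. Gamt and Slc6a8 lay below the filter on every array, where a fall would be harder to measure than a rise, and the spread of their small differences between cultures is unknown.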
